A study of Mus musculus with 20 samples.

Results

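RNA precipitated with GFP-tagged AGO2 from the hippocampus was compared between mice expressing GFP-AGO2 together with a control sponge and sham-injected mice. The members of the comparison were 4 of the 8 RIP libraries of a series with 20 samples, and 8203 of 38158 annotated 3′ UTRs, taken because they held 10 or more counts in each of the 8 RIP libraries. These 3′ UTRs belonged to 7639 named genes, and 41 of them had no gene name. The 2 libraries of the GFP-AGO2 group (IP5 and IP6) came from adult C57BL/6 mice injected in the hippocampus with AAV5 that carried GFP-AGO2 and the miR292 sponge (miR292sp) under a synapsin promoter, which is active in neurons. The 2 sham libraries (IP7 and IP8) came from mice of the same strain that received no vector. The same antibody against GFP was used on both, so that the sham libraries hold RNA that came down without the tagged protein. Per library, the lysates of 2 hippocampi were pooled, and the labels do not say from which animals. The p-values therefore measure the spread between libraries of a group, estimated over all 8 RIP libraries. Whether this is a spread between animals is not known. The sham mice lacked the vector, the sponge and GFP-AGO2 together, so that binding to AGO2 and an effect of the vector on RNA levels in the tissue cannot be told apart here, nor can fewer cells of a type and less RNA per cell.

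AGO2 is the protein that holds a mature miRNA and, guided by it, binds mRNAs, most often in the 3′ UTR. The bases of the miRNA counted as its seed pair with the target, and bound mRNAs are then shortened at the poly(A) tail, decapped and degraded, or translated less. Precipitating AGO2 therefore enriches mRNAs that miRNAs of the cell are bound to. miR-292 belongs to a family known from embryonic stem cells, and its sponge served as the control because the miRNA was held to be absent from the brain. In the hippocampus, miRNAs such as the let-7, miR-125, miR-29, miR-128 and miR-9 families are known as abundant.

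The mature sequences of miRNAs whose seed matches moved furthest with the enrichment are shown first, from RefSeq (GRCm38.p6), with bases 2 to 8 in capitals. They were picked among the 23 seeds searched, which lack that of miR-124. The let-7 members share 1 seed, as do miR-125a and miR-125b. miR-21a is shown because 3′ UTRs with its match lay below the others.
let-7a-5p: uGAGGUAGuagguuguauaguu
let-7b-5p: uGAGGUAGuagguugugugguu
miR-125a-5p: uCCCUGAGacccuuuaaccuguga
miR-125b-5p: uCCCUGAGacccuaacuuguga
miR-29a-3p: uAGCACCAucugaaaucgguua
miR-128-3p: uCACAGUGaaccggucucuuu
miR-21a-5p: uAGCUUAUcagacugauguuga

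For each of these seeds, the match in the most enriched 3′ UTR that held one is given below, with the match in capitals, written 5′ to 3′ along the mRNA and placed on NCBIM37 (mm9). The miR-29 match in Frat2 lies on chr19:41921334-41921356 (minus strand), and 12.1% of 3′ UTRs in the same quintile of length held one. The let-7 match in Zswim5 lies on chr4:116661249-116661271 and the miR-125 match on chr4:116660219-116660241 (plus strand), with shares of 13.5% and 20.7% in that quintile. The miR-128 match in Zbtb34 lies on chr2:33263661-33263683 (minus strand), with a share of 49.5%, and the miR-21a match in Tet3 on chr6:83313744-83313766 (minus strand), with a share of 21.0%. All lie in annotated 3′ UTRs, and a match is a run of letters and no measured site.
Frat2, miR-29: gaagctttctgaataTGGTGCTa
Zswim5, let-7: tcttcctccaactctCTACCTCa
Zswim5, miR-125: agaacactgttccgtCTCAGGGa
Zbtb34, miR-128: tggctaccaagggccCACTGTGc
Tet3, miR-21a: tctccctgtgtccacATAAGCTg

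The miR292sp libraries held 5072501 and 4988911 counts in 3′ UTRs and the sham libraries 2931054 and 2417942. Counts were scaled by the summed counts of a set of reference 3′ UTRs, namely Gapdh and 50 on either side of it in the order of the raw ratio, and the relative enrichment is the mean scaled count of miR292sp divided by that of sham. The reference rows took 0.697% and 0.745% of the counts with miR292sp and 2.01% and 1.92% in sham. On this scale the median 3′ UTR was enriched 2.39-fold, and its log2 fold change was 1.26. TMM scaling, which takes most 3′ UTRs as unchanged, placed the median at -0.11, a shift of 1.37, so that a 3′ UTR with a log2 fold change between 0 and about that size is higher on the first scale and lower on the second, and one below 0 is lower on both. Values without a named scale are on the reference scale, and those with TMM are given beside them. IP5 and IP6 differed over 2-fold in 5.22% of the 3′ UTRs, and IP7 and IP8 in 18.1%, so that the background was the less precise side of each ratio.

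**Figure D1:**
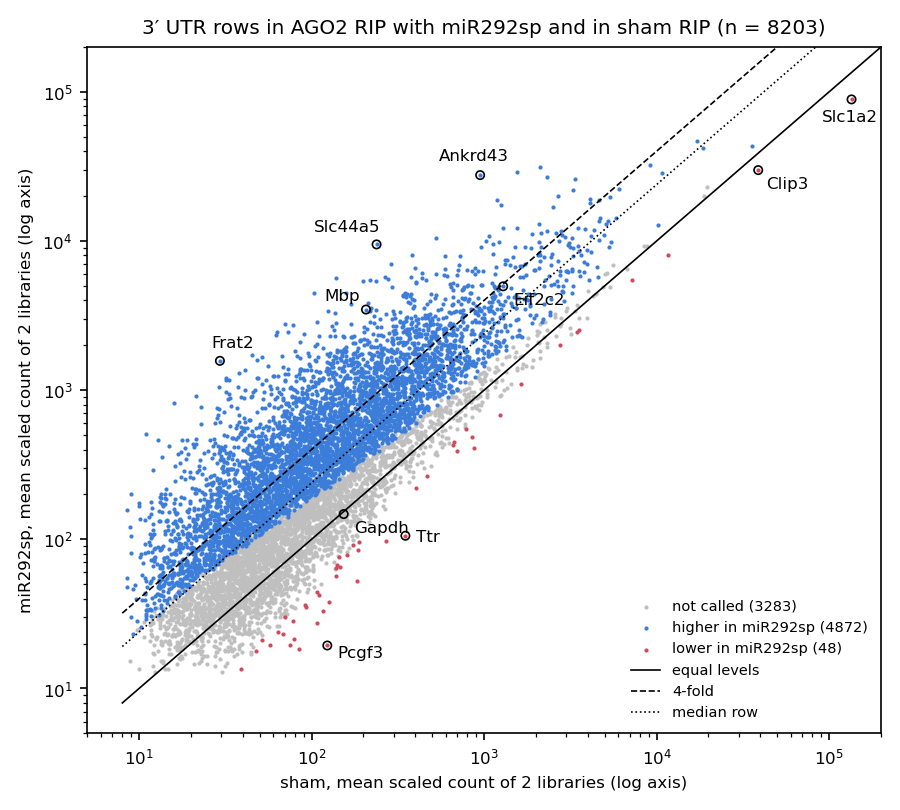
Each point is 1 of 8203 3′ UTRs, with the mean scaled count of the 2 sham libraries on the horizontal and of the 2 miR292sp libraries on the vertical log axis. Blue and red points passed the edgeR test upwards (4872) and downwards (48), the lines mark equal levels, the median row and a 4-fold enrichment, and 10 genes are named. Most points lie above the line of equal levels.

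By the quasi-likelihood test of edgeR, with p-values adjusted after Benjamini and Hochberg, 4872 of the 8203 3′ UTRs (59.4%) were higher with miR292sp and 48 (0.585%) lower. With TMM, 1768 (21.6%) were higher and 1563 (19.1%) lower. The 1768 were all among the 4872, and 117 of the 4872 were called lower with TMM. A relative enrichment above 4-fold was reached by 2230 (27.2%), all of them called higher, and by 1536 when both miR292sp libraries had to exceed each sham library 4-fold. The genes that are described as lists below are each represented by the 3′ UTR with the most counts, and 61.7% of 7639 genes were higher and 0.576% lower on that basis, with a median log2 fold change of 1.31 and 28.4% above 4-fold. With TMM, 22.7% of the genes were higher and 18.2% lower, with a median of -0.06. In 29 of the 37 lists edgeR called no gene lower on the reference scale. An unadjusted p below 0.05 in that direction occurred in 2 of their 999 entries, 1 synaptic vesicle and 1 postsynaptic gene, and DESeq2 called none. Where no gene of a list was called in a direction with TMM, none reached an unadjusted p below 0.05 either.

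The most enriched 3′ UTR was that of Frat2, whose protein binds GSK3 and promotes Wnt signalling. IP5 and IP6 held 1615 and 1531 scaled counts of it, IP7 and IP8 18.8 and 40.0, a relative enrichment of 53.5 (log2 fold change 5.76 ± 0.33, adjusted p = 1.95e-10). Ddit4, an inhibitor of mTORC1 that is induced by stress, had 730.4 and 899 against 12.8 and 19.1, an enrichment of 51.1. Both genes had few counts in the sham libraries and far more with GFP-AGO2. Sec24d, a coat protein of vesicles leaving the endoplasmic reticulum, followed at 46.5-fold, Zswim5 at 42.8-fold and the RNA helicase gene Dhx8 at 42.8-fold. Zswim5 rested on sham values that differed widely, 45.9 in IP7 and 162 in IP8, but its miR292sp values of 4483 and 4423 lay above both.

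The 12 highest also held Zbtb34, a zinc finger gene, at 40.7-fold, the choline transporter-like gene Slc44a5 at 39.9-fold, Scrt2, a neuronal repressor of transcription, at 39.8-fold, and Itgb1, the β1 integrin subunit, at 38.6-fold. Sema7a, a membrane-bound semaphorin, was enriched 38.0-fold, Kcnj2, an inward rectifier potassium channel, 37.9-fold, and Kdm6b, a demethylase of histone H3 lysine 27, 37.7-fold. The groups of libraries did not overlap for any of the 12, as in 76.1% of all 8203 3′ UTRs, where both miR292sp libraries lay above both sham libraries. Of the bases of the Itgb1 row, 47.6% are also part of another annotated row, and the other 11 rows share none. In the 4 libraries with GFP-AGO2 and another sponge, which were set against the same sham libraries, the medians of these 12 were 13.1 and 10.7 (miR124sp) and 19.7 and 16.0 (miR125sp), against 43.6 and 41.2 with miR292sp. The median of all 8203 3′ UTRs was also lower there, 1.20 and 1.37 (miR124sp) and 1.47 and 1.44 (miR125sp) against 2.40 and 2.33, and the 12 were chosen as the highest in IP5 and IP6, which fixes part of that fall.

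Where the background held 100 or more counts, the ratio rests on more reads. Among those 3′ UTRs the 12 highest were Zswim5, Zbtb34, Slc44a5, Scrt2, Itgb1, Sema7a, Kdm6b, Tmem28, Fkbp1b, Btg2, Ssh1 and Ankrd43. Ankrd43, named Sowaha in current annotations, had the most counts of them, with scaled counts of 27440 and 27920 against 856 and 1043, an enrichment of 29.2 (log2 fold change 4.87 ± 0.16, adjusted p = 9.62e-13). Fkbp1b, which binds calcium release channels, was enriched 33.7-fold, and Btg2, an antiproliferative adaptor of the CCR4-NOT deadenylase, 33.0-fold. Ssh1, a phosphatase that activates cofilin, reached 32.3-fold and Tmem28 35.2-fold. The log2 fold changes of the 12 lay between 3.51 and 4.11 with TMM.

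**Figure D2:**
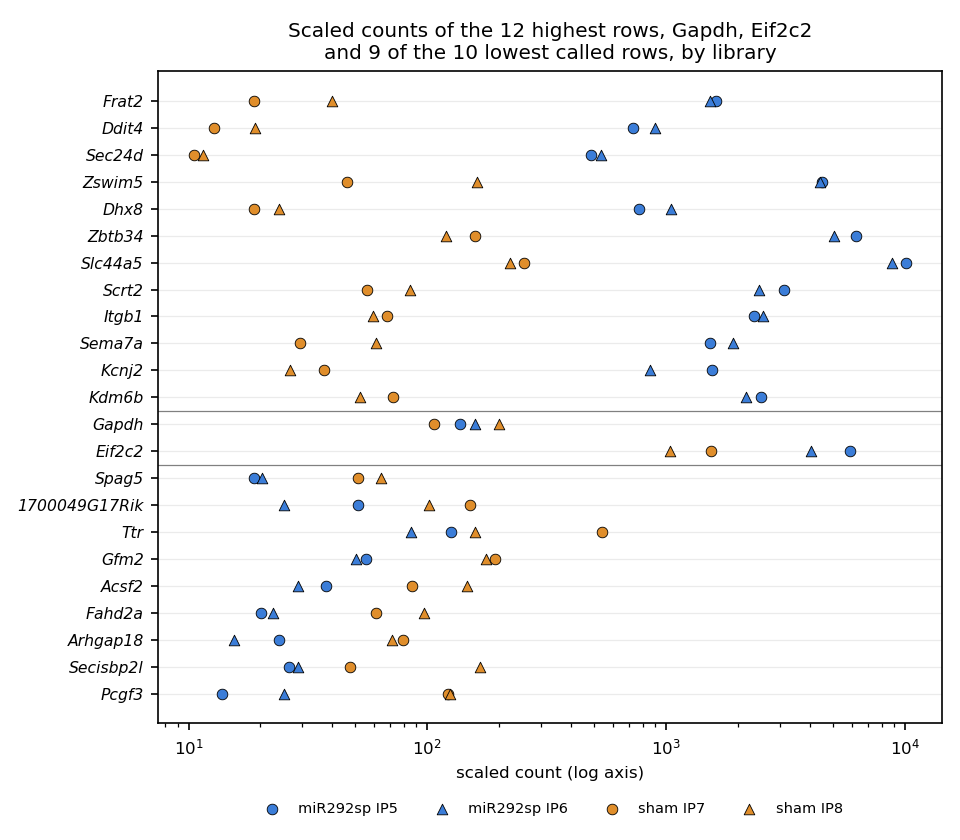
Scaled counts on a log axis in the 2 miR292sp libraries (blue) and the 2 sham libraries (orange), for the 12 most enriched 3′ UTRs, Gapdh, Eif2c2 (Ago2) and 9 of the 10 lowest called 3′ UTRs. The blue points lie to the right of the orange ones in the upper block and to the left in the lower one, and for Gapdh they lie between the orange ones.

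The lowest of the 48 3′ UTRs that were lower with miR292sp on both scales was a 1222-base row of Pcgf3, a Polycomb ring finger gene. It had 11 and 21 raw counts in IP5 and IP6, against 162 and 131 in the sham libraries (log2 fold change -2.66 ± 0.55, adjusted p = 0.000396). In IP5 this 3′ UTR was close to the limit of 10 counts. The other 4 libraries with GFP-AGO2 held 78, 57, 90 and 295 counts of it (IP3, IP4, IP1 and IP2). Their relative enrichments were 0.53, 0.49, 0.80 and 2.32, against 0.11 and 0.20 in IP5 and IP6. On the reference scale IP3, IP4 and IP1 thus also lay below both sham libraries, while IP2 lay above them. The level was lowest in IP5 and IP6, but it was not low in these alone. Others of the 10 lowest were Secisbp2l (-1.95), Arhgap18 (-1.93), Fahd2a (-1.88), Acsf2 (-1.81), Gfm2 (-1.81), Ttr (-1.73), 1700049G17Rik (-1.73) and Spag5 (-1.55). Ttr, which encodes the thyroxine carrier of the choroid plexus, had 541 scaled counts in IP7 and 159 in IP8, and 1318 and 1016 in IP1 and IP2 with GFP-AGO2 and miR125sp, and the choroid plexus and ependyma markers summed to 0.0490% and 0.0202% of the counts of IP7 and IP8. The part of choroid plexus in the dissected tissue was not tested. Every base of the Gfm2 row is also part of another row. The number of lower 3′ UTRs depended on single libraries, with 26 without IP5, 18 without IP6, 12 without IP7 and 206 without IP8, where the reference rows were chosen anew, and 19 to 52 where they were kept. Of those named here, Pcgf3, Fahd2a and Gfm2 passed the test without any 1 of the 4, whereas Ttr stood at -0.16 without IP7 and the other 5 missed the threshold without at least 1 library.

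Genes with several 3′ UTR rows gave different values for them. Of the 7639 genes, 472 had 2 or more rows tested, and the median range of the log2 fold change within a gene was 0.83. In 86 genes rows lay over 2 log2 units apart. A row called higher and a row called lower occurred together in 3 genes, Homer1, Pcgf3 and Secisbp2l, which were picked out after their values were seen, and with TMM in 29. The 6572-base row of Pcgf3 was enriched 8.13-fold (log2 fold change 3.02 ± 0.23), where the 1222-base row was the lowest of all. The 3279-base row of Secisbp2l stood at 1.74 ± 0.32 (0.39 with TMM) and its 1010-base row at -1.95 ± 0.58. Homer1, a scaffold of the postsynaptic density with a short form that neuronal activity induces, had 3 rows at 3.36 ± 0.22, 3.10 ± 0.29 and 2.29 ± 0.50 and a 676-base row at -1.45 ± 0.57 (adjusted p = 0.0364). The low row had 11 and 36 counts in IP5 and IP6 and 128 and 62 in IP7 and IP8, so that the replicates differed widely but the groups did not overlap. It missed the threshold without IP5 (-0.95) and without IP7 (-0.68), and the low row of Secisbp2l without IP5 (-2.01), IP6 (-1.87) or IP8 (-1.25).

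The limit of 10 counts in each library removed 3′ UTRs that were low in sham. With miR292sp, 10087 rows had 10 or more counts in both libraries, and 9318 had them in both sham libraries. In 557 rows all 6 libraries with GFP-AGO2 reached 10 counts and a sham library did not. The one with the most counts was Fam78a, with 818 and 817 counts in IP5 and IP6 and 17 and 8 in IP7 and IP8, which puts the ratio of the scaled means at 97.9. Vat1, a protein of cholinergic vesicles, had 420 and 393 counts against 6 and 5, a ratio of 107. Gfpt2, an enzyme of hexosamine synthesis, had 241 and 357 against 2 and 15, and Pard6b, a cell polarity protein, 274 and 265 against 4 and 12. 4921524J17Rik, 5730508B09Rik and Suox behaved likewise, with ratios of 57.6, 21.2 and 31.9. These rows were not tested, and ratios above that of Frat2 occur among them.

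The 3′ UTRs with the most counts were far from the most enriched. Slc1a2, the main glutamate transporter of astrocytes, had the most counts in both groups, with scaled counts of 89500 and 88610 against 132300 and 137700, and was lower (-0.60 ± 0.06, adjusted p = 1.68e-07, -1.97 with TMM). Clip3, a linker of the Golgi to microtubules, was also lower (-0.38 ± 0.10, -1.74 with TMM). Mtap1b, named Map1b in current annotations, was higher on the reference scale at 0.28 ± 0.08 and lower with TMM at -1.09. Zbtb20, a transcription factor of hippocampal neurons, stood at 1.19 (-0.18 with TMM) and Rab6b, a small GTPase of the Golgi, at 1.83 (0.46 with TMM). Slc25a23 at 0.22 and Lars2 at 0.10 did not pass the test on the reference scale. The 100 rows with the most counts held 22.9% of all counts in IP6, with nearly the same share in IP5, and 30.4% and 29.3% in sham. Gapdh, around which the reference was built, had scaled counts of 137 and 159 against 107 and 200.2 (-0.05 ± 0.41, adjusted p = 0.924). Among the called ones, Slc1a2 missed the threshold without IP7 (-0.21), where Clip3 stood at 0.02, and Mtap1b stood at 0.14 without IP5 and at -0.18 without IP8.

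Among the genes of the silencing machinery, RISC effectors were enriched and miRNA processing genes lay below the median gene. Of the RISC effector list, which holds the Argonautes, the GW182 scaffolds and their partners, 11 of 16 genes could be measured. All 11 were higher, against 61.7% of all genes, with a median log2 fold change of 1.94. With TMM 5 were higher and none lower (median 0.56). Wtip, a LIM protein of P-bodies, was the highest at 3.75 ± 0.52, although its sham values were 10.5 and 48.6, and Limd1, of the same family, the lowest at 1.33 ± 0.47 (-0.02 with TMM). Limd1 missed the threshold without IP6 (1.17) and without IP8 (1.08). Tnrc6b, a GW182 scaffold, had scaled counts of 11320 and 8647 against 969 and 1070 (3.29 ± 0.17). Eif2c2, which encodes AGO2 itself, had 5907 and 4037 against 1543 and 1039 (1.94 ± 0.23, adjusted p = 1.07e-06, 0.56 with TMM and adjusted p = 0.0839), and whether the vector carries this 3′ UTR could not be told from the sources used here. Of the 9 miRNA processing genes measured, 5 (55.6%) were higher and 4 not called (median 1.07), and with TMM 1 was higher and 4 lower. Dicer1, which cuts miRNA precursors, led at 2.68 ± 0.21, while Prkra, a partner of Dicer, stood at -0.78 ± 0.56, and the helicases Ddx17 (0.21) and Ddx5 (0.31) did not pass the test on the reference scale and were lower with TMM (-1.16 and -1.06).

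mRNAs for the enzymes that act after AGO2 were enriched as well. Of 18 genes for deadenylation and decapping, 15 (83.3%, against 61.7% of all genes) were higher and none lower (median 2.28). With TMM 9 were higher and 2 lower (median 0.92). Btg2 led at 5.05 ± 0.27, with scaled counts of 1683 and 1512 against 44.4 and 52.4. Dcp2, the decapping enzyme, had 2751 and 1857 against 244 and 111 (3.69 ± 0.32), and Cnot6l, a deadenylase, 1941 and 1445 against 166 and 318 (2.81 ± 0.31). Cnot10, a subunit of the same complex, stood at -0.17 ± 0.38 and did not pass the test. In all, 61.1% of these genes lay above 4-fold, against 28.4% of all genes.

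Immediate early genes, which neurons transcribe within minutes of activity, had the highest median of the 37 lists, 2.50. Of 28 measured, 25 (89.3%, against 61.7% of all genes) were higher and none lower. Above 4-fold lay 67.9%, against 28.4% of all genes, and with TMM 16 were higher and 2 lower. Besides Btg2, which is also on this list, Arc, a regulator of glutamate receptor uptake, had scaled counts of 3957 and 6191 against 777 and 844 (2.65 ± 0.22), and the fullest Homer1 row 2231 and 2077 against 215 and 204. For both, the 2 miR292sp libraries lay above the 2 sham libraries, as in 76.1% of all 8203 3′ UTRs. Nfil3 was the lowest member, at -0.71 ± 0.60, and did not pass the test. Of 61 neuronal transcription factors, 54 (88.5%) were higher and 1 lower (median 2.19), and with TMM 35 were higher and 5 lower (median 0.83). Scrt2 led, with scaled counts of 3127 and 2461 against 55.7 and 84.8. Nfix, of the nuclear factor I family, had 18650 and 16180 against 1179 and 1334 (3.79 ± 0.20). Sox2, a factor of neural stem cells and glia, was the lowest at -0.78 ± 0.56, and 97.0% of its row lies in another row.

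Chromatin regulators included some of the most enriched mRNAs. Of 74 measured, 53 (71.6%, against 61.7% of all genes) were higher and none lower (median 1.68), and with TMM 31 were higher and 10 lower. Kdm6b had scaled counts of 2510 and 2159 against 71.6 and 52.4. Setd7, a lysine methyltransferase, had 11780 and 10600 against 2031 and 1777 (2.56 ± 0.14), and Mll1, the histone methyltransferase now named Kmt2a, 5239 and 4773 against 860.1 and 1429, an enrichment of 4.37. Smarcb1, a subunit of the SWI/SNF complex with a 49-base row, stood at -0.90 ± 0.59 and did not pass the test.

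In signalling pathways the share of genes called higher ran from 66.7% to 80.4%, against 61.7% of all genes. Median 3′ UTR lengths were 2010 bases for PI3 kinase, 2218 for MAP kinase, 1780 for Wnt and 2262 for TGF-β and BMP genes. Notch genes had 1377, and all genes 1378. In the 2 longest quintiles of all 3′ UTRs 68.2% and 73.8% were higher, and a part of length in these shares was not tested. In PI3 kinase, insulin and mTOR signalling 36 of 50 (72.0%) were higher and none lower (median 1.97), and with TMM 20 were higher and 2 lower. Ddit4 led this list, and Rragd, a GTPase that brings mTORC1 to the lysosome, had 3825 and 2977 against 192 and 242 (3.97 ± 0.23). Deptor, an inhibitor of mTOR, was the lowest at -0.27 ± 0.35. Of 46 MAP kinase genes, 37 (80.4%) were higher and none lower (median 1.83), and with TMM 18 were higher and 5 lower. Mknk2, a kinase of the cap-binding protein eIF4E, led at 4.22 ± 0.26, with 74.4% of its row in another row. Rasgrp1, an activator of Ras, had 22480 and 21740 against 3489 and 3075 (2.75 ± 0.15). Map2k4 stood at 1.53 (0.15 with TMM).

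In Wnt signalling 30 of 44 genes (68.2%, near the share of all genes) were higher and none lower (median 1.61), and with TMM 14 were higher and 6 lower. Frat2 led this list, and Gsk3b, the kinase that its protein binds, had 10950 and 7407 against 1698 and 1343 (2.59 ± 0.23). Dkk3 was at 1.64 ± 0.16 (0.28 with TMM) and Tle2, a corepressor, lowest at -0.22 ± 0.55. In Notch signalling 14 of 19 (73.7%) were higher and none lower (median 2.02), and with TMM 6 were higher and 1 lower. Mib1, the ligase that makes Notch ligands active, led with 9495 and 6489 against 568 and 616 (3.76 ± 0.23). Rfng, a glycosyltransferase that modifies Notch, was at 1.74 ± 0.20 (0.36 with TMM) and the receptor Notch2 at -0.20 ± 0.37. TGF-β and BMP signalling had 18 of 27 (66.7%, also near that share) higher and 1 lower (median 1.10, below the median gene) and, with TMM, 7 higher and 7 lower. Ski, a repressor of SMAD proteins, was highest at 3.68 ± 0.19, with 56.8% of its row in another row, and Zeb2 lowest at -1.47 ± 0.45 (adjusted p = 0.00848). The 1849-base row of Zeb2 had no 3′ UTR position in the annotation used, so that its overlap with other rows is not known. Bmpr1a, a BMP receptor, stood at 0.13 ± 0.16 and was lower with TMM (-1.23). Without IP8, 10 of the 27 were higher, and Zeb2 missed the threshold without IP5 (-1.21) and without IP7 (-0.70).

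Of 56 ubiquitin ligases and adaptors, 45 (80.4%, against 61.7% of all genes) were higher and none lower (median 1.72). With TMM 21 were higher and 8 lower. Rnf165, which also promotes BMP signalling in motor axons, had 11400 and 9591 against 594 and 459 (4.32 ± 0.21). The HECT ligase Nedd4l was at 2.64 ± 0.15 and its relative Nedd4 at 1.37 ± 0.12, which is 0.00 with TMM. For both, the 2 miR292sp libraries lay above the 2 sham libraries on the reference scale, as in 76.1% of all 8203 3′ UTRs. Mdm4, an inhibitor of p53, was the lowest at -0.36 ± 0.33.

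Axon guidance genes were higher in 74.5% and cytoskeleton regulators in 88.2%, against 61.7% of all genes, of which 0.576% were lower. Of 51 axon guidance genes 38 were higher and none lower (median 1.87), and with TMM 21 were higher and 9 lower. Sema7a led, and Epha7, an ephrin receptor, had 7932 and 7982 against 664 and 784 (3.46 ± 0.17). Sema5a, a guidance cue, had 5154 and 4680 against 5192 and 5590 and did not pass the test (-0.13 ± 0.13, -1.50 with TMM), and Robo3, of the Robo receptor family, was lowest at -0.58 ± 0.46. Of 68 cytoskeleton regulators 60 were higher and none lower (median 1.90), and with TMM 27 were higher and 6 lower. Ssh1 led at 5.02 ± 0.27, with 48.1% of its row in another row. Kif5a, a motor of axonal transport, stood at 1.41 ± 0.14 (0.04 with TMM), and Arhgap5 was lowest at -0.07 ± 0.53.

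At the synapse, the values spread widely within each compartment. Of 56 synaptic vesicle genes 42 were higher and none lower (median 1.77), and with TMM 20 were higher and 12 lower. Among all genes, 61.7% were higher and 0.576% lower, and with TMM 22.7% were higher and 18.2% lower. Bsn, a scaffold of the active zone, had 26540 and 27430 against 2715 and 1903 (3.55 ± 0.15), and Sh3gl1, an endophilin, led at 3.89 ± 0.23. Cplx2, a complexin, stood at 2.04 ± 0.13 (0.66 with TMM), and a 33-base row of Ppfia2 was lowest at -1.17 ± 0.50 (adjusted p = 0.0518). Of 50 postsynaptic scaffolds and adhesion genes 40 (80.0%) were higher and none lower (median 1.56), and with TMM 19 were higher and 11 lower. Sipa1l2 led at 4.42 ± 0.31, and Cnksr2, a scaffold of the postsynaptic density, had 19200 and 20940 against 2699 and 2704 (2.89 ± 0.14). Camk2a, the kinase of synaptic plasticity, stood at 1.89 ± 0.11 (0.52 with TMM) and Lrrtm2, an adhesion protein of excitatory synapses, at -0.44 ± 0.19 (adjusted p = 0.0514, -1.81 with TMM).

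Receptors and channels lay closer to the median gene. Of 36 glutamate and GABA receptor genes 26 (72.2%, against 61.7% of all genes) were higher and none lower (median 1.27). With TMM 9 were higher and 11 lower. Grm2, a metabotropic glutamate receptor, led with 825 and 569 against 79.1 and 63.9 (3.28 ± 0.40), and Gabbr2, a GABA-B subunit, stood at 1.89 ± 0.15. Gabrg1 was the lowest at -0.39 ± 0.52. Of 64 ion channel genes 46 (71.9%) were higher and none lower (median 1.48), and with TMM 20 were higher and 14 lower. Kcnj2 led, with 1552 and 855 against 36.9 and 26.7. Scn8a, a sodium channel of the axon initial segment, was enriched 4.39-fold, Kcna1 at 1.63 ± 0.14 (0.26 with TMM), and Kcnh7 at -0.26 ± 0.15, where it did not pass the test (-1.63 with TMM).

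**Figure D3:**
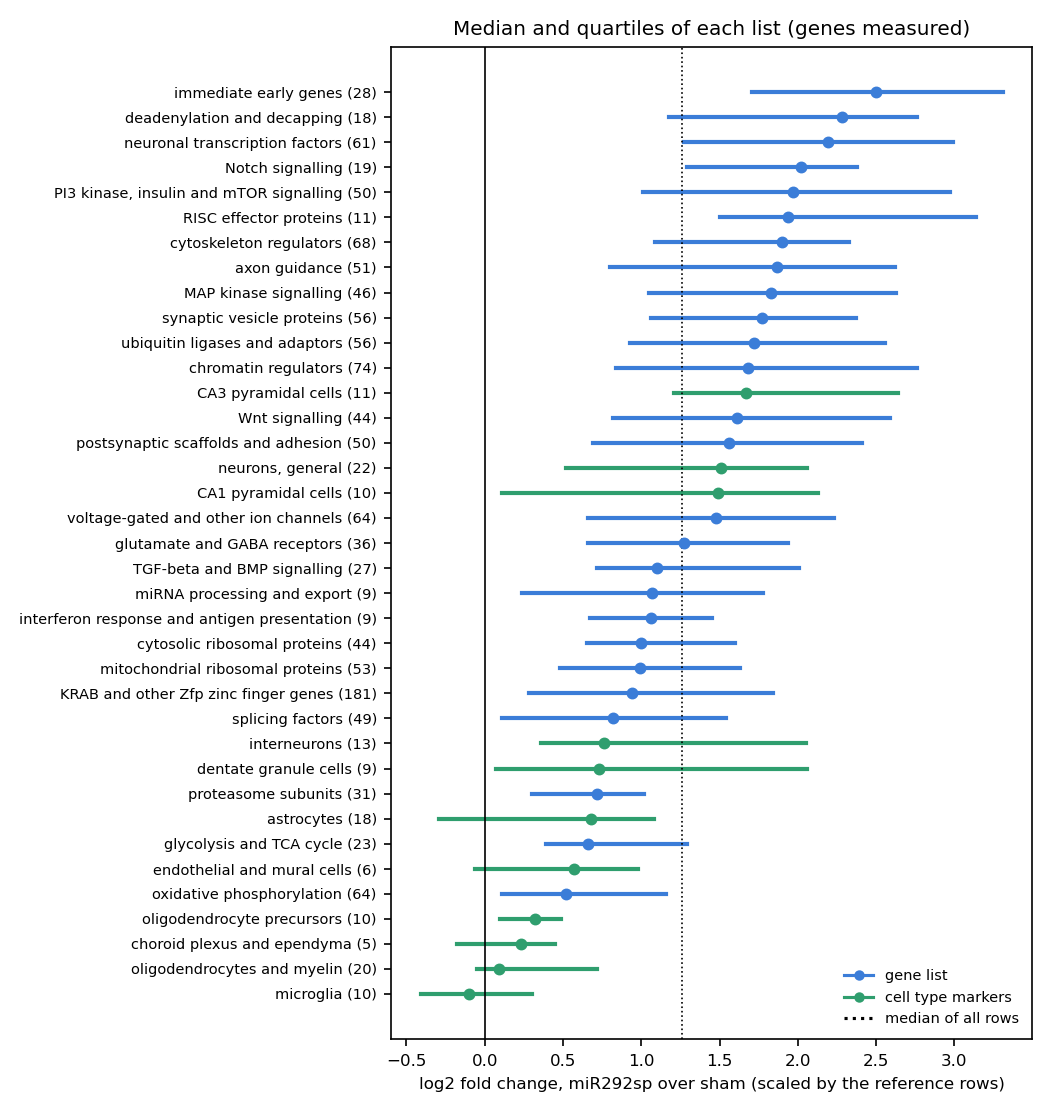
Median (point) and quartiles (bar) of the log2 fold change of miR292sp over sham on the reference scale, for 26 gene lists (blue) and 11 lists of cell type markers (green), with the number of genes measured. The dotted line is the median of all rows (1.26). Immediate early genes lie highest (2.50) and microglia markers lowest (-0.10).

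Genes of basic metabolism were low for this comparison, and few of them lay above 4-fold. Their 3′ UTRs were short, with median lengths of 161 bases for oxidative phosphorylation, 296 for the proteasome and 694 for glycolysis and the TCA cycle. The median over all genes was 1378 bases. In the shortest quintile of all 3′ UTRs 40.1% were higher and 15.2% above 4-fold, and a part of length in the low values was not tested. Of 64 oxidative phosphorylation genes 18 (28.1%, against 61.7% of all genes) were higher, none lower and 46 not called (median 0.52). With TMM 2 were higher and 21 lower (median -0.83), where 22.7% of all genes were higher and 18.2% lower. Atp5g1 led at 2.38 ± 0.36, the genes with the most counts were Cox6a1 (1.99 ± 0.21) and Cox8a (1.55 ± 0.24), and Cox6c was lowest at -1.07 ± 0.58. Of 31 proteasome genes 7 (22.6%) were higher and none lower (median 0.72), and with TMM 1 was higher and 4 lower. Psma3 led at 3.11 ± 0.35, Psme3 was at 1.90 ± 0.25 and Psmd4, a ubiquitin receptor of the proteasome, at -0.26 ± 0.39. Of 23 glycolysis and TCA cycle genes 11 (47.8%) were higher and none lower (median 0.66), and with TMM 2 were higher and 12 lower. Got1, an aminotransferase of the malate-aspartate shuttle, led with 1535 and 1744 against 138 and 140.1 (3.56 ± 0.24), with 59.6% of its row in another row, while Cs stood at 0.39 and Eno2 at 0.57 (-0.98 and -0.80 with TMM). Without IP5 and without IP8, 3 and 3 genes were higher for the proteasome and 5 and 7 for glycolysis and the TCA cycle, and Eno2 missed the threshold in both cases (0.52 and 0.13). With the reference rows kept, oxidative phosphorylation had 10 higher without IP6 and 11 without IP7.

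Ribosomal protein genes lay below the median gene, and their 3′ UTRs were short, with a median length of 212.5 bases for the cytosolic and 302 for the mitochondrial ones against 1378 for all genes. Of 44 cytosolic ones 19 (43.2%, against 61.7% of all genes) were higher and none lower (median 1.00). With TMM 3 were higher and 3 lower, where 22.7% of all genes were higher and 18.2% lower. Rpl22 led at 3.05 ± 0.36 and Rpl24 stood at 2.71 ± 0.33, both with rows longer than that of the median gene (1647 and 1588 bases), and Rps13 was lowest at -0.27 ± 0.62. Of 53 mitochondrial ones 25 (47.2%) were higher and none lower (median 0.99), and with TMM 4 were higher and 10 lower. Mrpl44 led with 143 and 163 against 12.8 and 14.3 (3.49 ± 0.59), and Mrps9 was lowest at -0.60 ± 0.45. Mrpl53 at 3.21 ± 0.27 shares every base of its row with another row, and Mrpl10 stood at 1.26 ± 0.29 (-0.12 with TMM). Without IP8, 9 cytosolic and 16 mitochondrial genes were higher and Mrpl10 missed the threshold (0.63), and without IP5, 10 cytosolic genes were higher. Ribosomal protein genes have many pseudogenes, and the sources used here do not say how reads that map to several places were counted.

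Splicing factors and Zfp zinc finger genes spread widely. Of 49 splicing factors 23 (46.9%) were higher and 1 lower (median 0.82), and with TMM 9 were higher and 17 lower. Over all genes 61.7% were higher and 0.576% lower, and with TMM 22.7% were higher and 18.2% lower. Celf4, of neuronal splicing, had 19840 and 18290 against 4244 and 3998 (2.21 ± 0.14), and Hnrnpf led with 315 and 273 against 19.6 and 48.6. Srrm2, a component of the spliceosome, was the one called lower, with 7010 and 9029 against 10390 and 13070 (-0.55 ± 0.15, adjusted p = 0.00468). Srrm1 was the lowest at -0.72 ± 0.47 and did not pass the test. Of 181 Zfp genes 79 (43.6%) were higher and 1 lower (median 0.94), and with TMM 33 were higher and 45 lower. Zfp609 led at 4.53 ± 0.35, with 80.4% of its row in another row, Zfp365 stood at 1.70 ± 0.15 (0.33 with TMM) and Zfp91 at 0.65 ± 0.16 (-0.72 with TMM), and Zfp772 was the one called lower (-0.82 ± 0.29, adjusted p = 0.021). Without IP8, 15 splicing factors were higher and Zfp91 missed the threshold (0.13), and without IP7, Srrm2 (-0.30) and Zfp772 (-0.51) did, the latter also without IP6 (-0.55).

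Because the sham mice had no vector, genes of the interferon response were examined. Of 56 listed genes 9 had enough counts, and since the limit of 10 counts also holds for the sham libraries, genes that are low without the vector and induced by it were left out beforehand. The 46 genes not measured summed to 0.00574% and 0.00369% of all counts with miR292sp and 0.00484% and 0.00579% in sham, and these shares overlapped. Their raw sums were 291 and 184 against 142 and 140, and on the reference scale the groups did not overlap either. The miR292sp libraries both lay above the sham libraries on that scale in 76.1% of all 8203 3′ UTRs. Of these genes, 5 reached 10 counts in both miR292sp libraries but not in both sham libraries, and 2 the reverse. Over all 3′ UTR rows the same counts were 1398 and 629. A reaction to the vector was therefore not tested by the other 9. Of these 4 (44.4%, against 61.7% of all genes) were higher and none lower. Their median of 1.06 is below the median gene, and with TMM none was called in either direction. Stat2, a transcription factor of the response, stood at 1.32 ± 0.32 (-0.04 with TMM). Eif2ak2, the kinase that senses double-stranded RNA, was at 0.32 ± 0.55. Without IP5 and without IP8, 2 of the 9 were higher.

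Markers of cell types were examined because they name the cells in which the precipitated mRNAs are made. The medians of general neuron, CA3 and CA1 markers lay above those of the glial lists and above the median gene (1.31). Dentate granule cell (0.73) and interneuron markers (0.76) lay below the median gene and close to astrocyte markers (0.68). In these 2 neuronal lists 44.4% and 46.2% were higher, against 61.7% of all genes. Of 22 general neuron markers 16 were higher and none lower (median 1.51), and with TMM 9 were higher and 7 lower. Nefh, a neurofilament subunit, led at 2.67 ± 0.32, and Snhg11 was lowest at -0.64 ± 0.34, with every base of its row in another row. Of 11 CA3 pyramidal cell markers 9 were higher (median 1.67) and of 10 CA1 markers 6 (median 1.49), with none lower in either, and with TMM 5 and 2 were higher and 2 and 3 lower. Socs2 led in CA3 at 3.81 ± 0.29, Tspan18 with 96.7% of its row in another row stood at 3.47 ± 0.27, and Pvrl3 was lowest at -0.22 ± 0.29. In CA1, Gpr161 led at 2.79 ± 0.47. Of 9 dentate granule cell markers 4 were higher (median 0.73), and of 13 interneuron markers 6 (median 0.76), with none lower, and with TMM 3 of each were higher and 3 and 6 lower. Pdzd2 at 2.72 ± 0.26 and Rfx3 at 1.93 ± 0.23 (0.56 with TMM) stood out in the dentate list and Stxbp6 was lowest at -0.24 ± 0.17. In the interneuron list 6330527O06Rik, the former name of Lamp5, led at 2.52 ± 0.33 and the potassium channel gene Kcnc1 followed in counts with 2.05 ± 0.18, while the neuropeptide gene Npy stood at -0.08 ± 0.42. Without IP7, 10 interneuron markers were higher.

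Glial and vascular markers had lower medians, that of astrocytes only slightly below those of dentate granule cells and interneurons. Of 18 astrocyte markers 7 (38.9%) were higher and 3 lower (median 0.68), and with TMM none was higher and 6 were lower. Over all genes 61.7% were higher and 0.576% lower, and with TMM 22.7% were higher and 18.2% lower. Sparcl1 led at 2.08 ± 0.40 (0.73 with TMM, where it was not called), and Slc1a2 was among the lower ones. Of 20 oligodendrocyte markers 5 were higher and none lower (median 0.09), and with TMM 1 was higher and 12 lower. The one was Mbp, myelin basic protein, whose scaled counts of 3725 and 3221 against 209 and 205 gave 4.07 ± 0.21, while Tspan2 stood at -0.03 ± 0.22 and Cldn11, the tight junction protein of myelin, was lowest at -0.73 ± 0.57. Oligodendrocyte precursor markers were not called in either direction in any of 10 genes (median 0.32, 4 lower with TMM), from Ptprz1 at 0.75 ± 0.45 through Olig1 at 0.24 and Cacng4 at 0.14 to Gpr17 at -0.30 ± 0.38. Of 10 microglia markers 1 was higher, Tmem119 at 1.59 ± 0.51, and 1 lower, Laptm5 at -1.42 ± 0.59 (median -0.10), and 7 were lower with TMM. Cx3cr1, the fractalkine receptor of microglia, was at 0.77 ± 0.39 and Olfml3 at -0.46 ± 0.44. The Laptm5 row shares 97.5% of its bases and had 73.1 scaled counts in IP7 and 21.9 in IP8. Of 6 endothelial and mural markers 3 were higher and 1 lower (median 0.57), with Slc2a1, the glucose transporter of the blood-brain barrier, at 1.25 ± 0.35, Bsg at 1.02, Rgs5 at -0.17 and Slco1a4 at -1.13 ± 0.46, and 2 were lower with TMM. Of 5 choroid plexus and ependyma markers Ttr was the one called, Kl stood at 0.76 ± 0.42 and Prlr at 0.24 ± 0.40, and 2 were lower with TMM.

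Several of these calls rested on single libraries. Without IP5, 3 astrocyte markers were higher and no microglia marker was, Tmem119 standing at 1.20. Without IP7, Laptm5 stood at 0.12 and 2 oligodendrocyte precursor, 2 microglia and 2 choroid plexus markers were higher. Without IP8, 4 astrocyte markers and none of the endothelial and mural ones were higher, with Slc2a1 at 0.54 and Bsg at 0.47. Slco1a4 missed the threshold without IP6 (-0.69), IP7 (-1.02) or IP8 (-1.17).

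As shares of all counts, which is a scaling by library total, the astrocyte markers took 1.65% and 1.74% in IP5 and IP6 against 6.66% and 6.73% in IP7 and IP8. Slc1a2 alone made up 85.3% to 90.0% of these sums, and the other astrocyte markers took 0.243% and 0.25% against 0.666% and 0.755%. Microglia markers took 0.0140% and 0.0154% against 0.0325% and 0.0315%, and oligodendrocyte markers 0.153% and 0.160% against 0.221% and 0.247%. The shares of some neuronal lists were lower with miR292sp as well, with 0.853% and 0.825% against 1.05% or more for CA1, 0.125% and 0.124% against 0.175% and 0.186% for dentate granule cells, and 0.291% and 0.325% against 0.401% and 0.387% for interneurons. General neuron markers took 1.68% and 1.78% against 1.61% and 1.58%, and CA3 markers 0.297% and 0.327% against 0.25% and 0.281%. The groups did not overlap for any of these lists, but the share of all 3′ UTRs for which this holds was not counted on this scale. With the reference scaling, both miR292sp libraries lay above both sham libraries in 76.1% of all 8203 3′ UTRs. On the reference scale the sums of oligodendrocyte markers (9751 and 9507 against 4878 and 5701 scaled counts) and of microglia markers (891 and 913 against 717 and 726) were higher with miR292sp, so that their direction depended on the scaling. The same held on that scale for CA1 (54270 and 49090 against 24850 and 24270), dentate granule cell (7946 and 7405 against 3869 and 4283) and interneuron markers (18490 and 19350 against 8847 and 8908). The astrocyte sum was lower on that scale too, 105000 and 103500 against 147100 and 155200, but without Slc1a2 the groups overlapped, at 15470 and 14860 against 14700 and 17390. The labels name hippocampal neurons as the cell type, and 22 of 25 neuron markers had counts, with 3 at 0 in all 4 libraries, while 22 of 25 astrocyte markers and 20 of 25 microglia markers also had counts. Counts for glial markers were present in all 4 libraries.

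The length and base composition of a 3′ UTR went with its enrichment. In the 7445 3′ UTRs whose length equals that in the annotation, the median relative enrichment was 1.82 in the shortest quintile, of up to 513 bases, and 2.52, 2.72, 2.68 and 2.85 in the next ones. The share above 4-fold rose from 15.2% in the shortest quintile to 28.8% in the second, and was 32.2% in the longest. IP5 and IP6 gave 1.70 and 1.91 in the shortest quintile and 3.01 and 2.69 in the longest. By G and C content the median was 2.08 in the poorest quintile (up to 38.0%) and 2.20, 2.45, 2.87 and 2.96 in the richer ones. Across 3′ UTRs, which are not independent replicates and share the same 4 libraries, Spearman's rho was 0.17 with length and 0.14 with G and C content, while length and G and C content gave -0.15. Short rows have fewer counts at a given level, so that their ratios also vary more. The share called higher was 40.1% in the shortest quintile and 73.8% in the longest. Several lists with high shares had long 3′ UTRs, with medians of 2305 bases for RISC effectors, 2314 for axon guidance and 2311 for neuronal transcription factors. The median was 1378 over all genes and 1079 for immediate early genes. A part of length in the values of the lists was not tested.

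**Figure D4:**
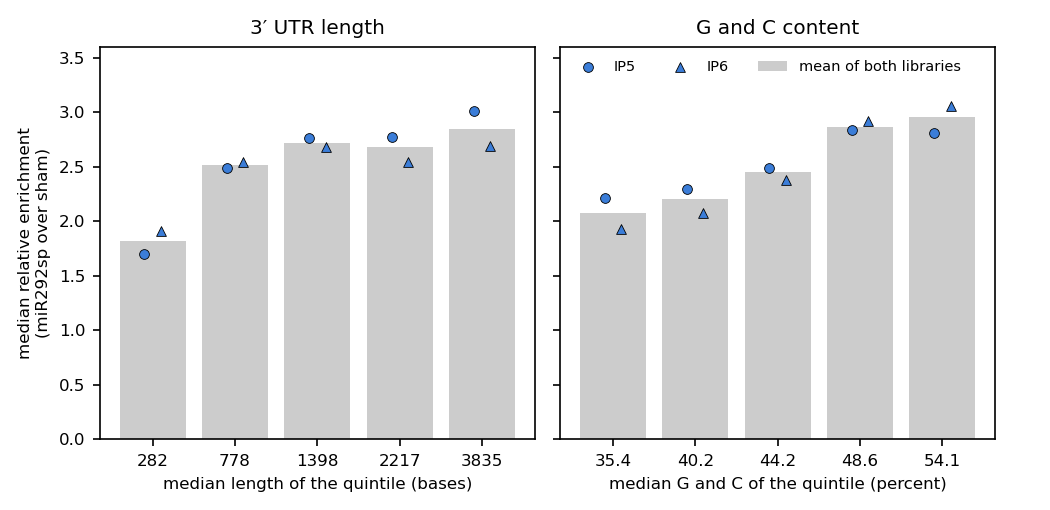
Median relative enrichment (bars, from the mean of both miR292sp libraries, and points, for IP5 and IP6) in quintiles of 3′ UTR length and of G and C content, with 1489 3′ UTRs in each. The shortest quintile is lowest at 1.82, and the quintile richest in G and C highest at 2.96.

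3′ UTRs with a seed match were set against those without one inside the same quintile of length, for 23 seeds. The seed of miR-124, which the study describes as highly expressed in hippocampal neurons, was not searched because its sequence had no entry. A match is the complement of miRNA bases 2 to 8, searched on the mRNA strand. The match for let-7 is CTACCTC, for miR-29 TGGTGCT, for miR-125 CTCAGGG, for miR-128 CACTGTG and for miR-21a ATAAGCT. Of the 7445 3′ UTRs, 858 (11.5%) had a let-7 match, and their median log2 relative enrichment was 1.86 against 1.24 without one. Within quintiles of length the difference was 0.50, with 0.51 in IP5 and 0.47 in IP6, and it was positive in each quintile, from 1.14 in the shortest to 0.39 in the longest. With 1, 2 and 3 or more matches the medians were 1.83 (756 3′ UTRs), 2.15 (93) and 2.46 (9). Above 4-fold lay 44.9% of the 3′ UTRs with a let-7 match and 26.3% of those without.

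miR-29 matches came next, with a difference of 0.37 within quintiles of length (0.37 in IP5 and 0.35 in IP6), and the medians for 1, 2 and 3 or more matches were 1.69, 1.76 and 2.44, the last over 43 3′ UTRs. For miR-125 the difference was 0.28, for miR-128 0.22, for miR-138 and miR-24 0.21, and for miR-9 and miR-34a 0.18. Differences of 0.12 to 0.17 were found for miR-101a, miR-16, miR-26a, miR-137, miR-30a, miR-103 and miR-99a, the last resting on 97 matches and 0.03 in IP6. miR-132 and miR-27b were at 0.04, miR-218 at 0.03 and miR-181a at -0.04, where IP5 and IP6 gave values of both signs. Of the miRNAs listed as low or absent in neurons, miR-223 was at 0.04, miR-206 at -0.05 and miR-142a at -0.12. miR-21a, a miRNA of glia and immune cells, gave -0.26, with -0.27 in IP5 and -0.26 in IP6, and was negative in each quintile of length. These differences are descriptions without a test, since 3′ UTRs share base composition and matches for several seeds.

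**Figure D5:**
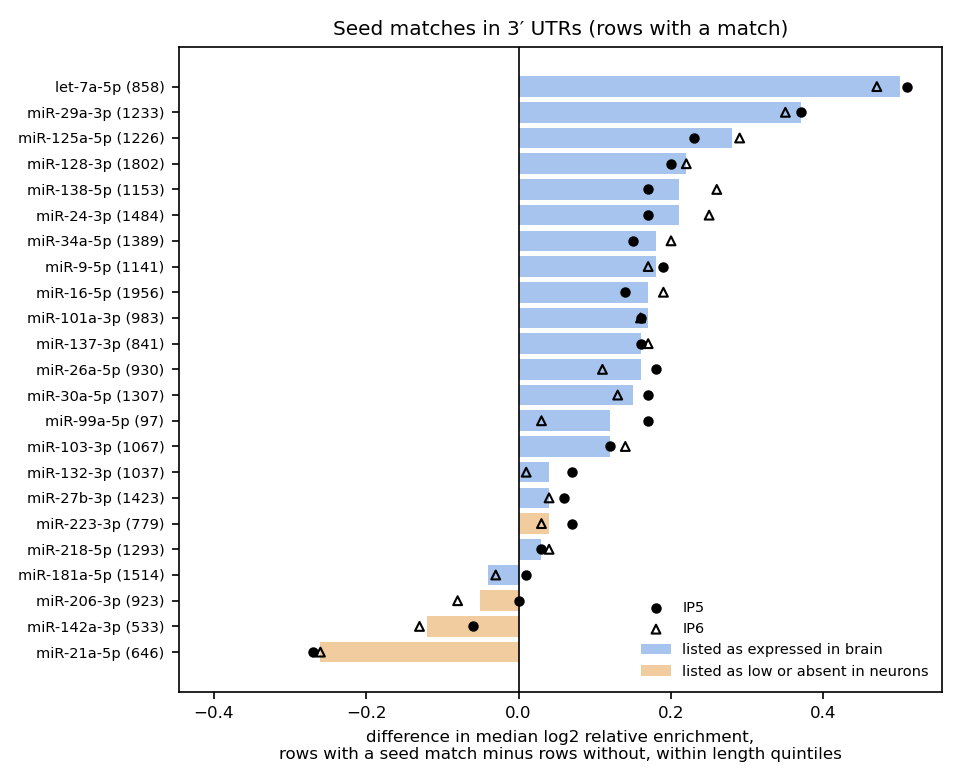
Difference in the median log2 relative enrichment between 3′ UTRs with and without a seed match, weighted over quintiles of 3′ UTR length (bars), with IP5 (filled points) and IP6 (open triangles) on their own, for 23 seeds with the number of 3′ UTRs that hold a match. let-7 lies highest at 0.50 and miR-21a lowest at -0.26.

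The number of different seeds matched also went with enrichment. Of the 19 seeds searched of miRNAs expressed in brain, which lack that of miR-124, 1321 3′ UTRs matched none. Their median relative enrichment was 1.74 with 13.5% above 4-fold, and they may hold matches for seeds that were not searched. With 1 or 2 seeds it was 2.32, with 3 to 5 seeds 2.87, with 6 to 9 seeds 3.19 and with 10 or more 3.41, where 41.8% of 189 3′ UTRs lay above 4-fold. The median length rose along the same groups, from 354 to 5802 bases. Within each quintile of length, 3′ UTRs with more seeds than that quintile's median were above the rest, with 2.14 against 1.62 in the shortest and 3.26 against 2.53 in the longest. Of the most enriched, Frat2 matched 4 of the 19 seeds, Ddit4 5, Zbtb34 14, and Sec24d and Dhx8 1 each. A short 3′ UTR with a single match thus stood beside a long one with many among the 12 highest.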

How the data were processed

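The authors deposited raw counts per annotated 3′ UTR for each RIP library, from single-end reads of polyA-selected RNA precipitated with antibodies to GFP. The reads were mapped to mm9 per the study's methods, while the submitters' processing notes name mm10, STAR and edgeR without their roles, and the sources used here do not name the counting program. The mRNA-seq of the series was not used here. Of the 38158 3′ UTR rows, 98.0% had a gene name in GENCODE M1 on NCBIM37 (mm9) and 82.7% the length given there. Where every base of a row lies in another row, 94.4% had no count in any of the 8 libraries, against 22.9% of rows that share none, so that values of overlapping rows are uncertain.

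From these counts, rows with 10 or more counts in each of the 8 RIP libraries were kept, scaled by Gapdh and the 50 rows on either side of it in the order of the raw ratio, and fitted over the 8 libraries with edgeR 4.0.16 (quasi-likelihood, R 4.3.3). The contrast of miR292sp with sham was called at a Benjamini-Hochberg adjusted p below 0.05. Errors of log2 fold changes are standard errors derived from the test, as the log2 fold change divided by the square root of its F statistic. There were n = 2 libraries per group, and the spread was estimated over all 8. The common biological coefficient of variation was 0.261. The fit was first tested on simulated data with known fold changes. In these data most rows, and all reference rows, were left unchanged, so that they cannot speak to the choice of scaling. Replicates differed by more than sampling noise (chi-square per degree of freedom 10.7 for miR292sp and 13.6 for sham). Total counts ranged from 2417942 to 5072501 in the 4 libraries, and depth limits rows near 10 counts most.

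Genes with several rows were represented in the lists by the row with the most counts. The rows named are the 12 most enriched with and without a minimum of 100 sham counts, the 10 lowest called lower, Gapdh and Ago2, the 5 with the most counts in each group, the 8 with the most miR292sp counts among those left out through sham alone, and for each list the highest, the lowest and the 2 with the most counts. Printed matches are in the most enriched row that holds one, none on chromosome 18. Some genes that this rule picks are not reported here. Seed matches were searched in rows of annotated length, for 27 of 32 listed miRNAs with a RefSeq entry, which share 23 seeds. miR-124-3p, miR-292a-3p, miR-122-5p, miR-1a-3p and miR-133a-3p had no entry. The comparison, the gene lists and the miRNAs were chosen with earlier results of these data known. TMM, other numbers of reference rows, DESeq2 1.42.0, other filters and leaving out each library were tried as alternatives. Python 3.11.15, numpy 2.4.6, pandas 2.3.3 and matplotlib 3.10.9 were used.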

Additional observations from a re-analysis of the deposited data

How the results depend on the processing

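The scaling decided most. With TMM in place of the reference rows, 1768 instead of 4872 3′ UTRs were higher, 1563 instead of 48 lower and 396 instead of 2230 above 4-fold, and of 153 named rows 85 kept direction and call, 15 lost the call, 31 gained one and 22 changed sign, with log2 fold changes of Bmpr1a -1.23, Bsg -0.35, Cacng4 -1.25, Cs -0.98, Cx3cr1 -0.60, Ddx17 -1.16, Ddx5 -1.06, Eif2ak2 -1.05, Eno2 -0.80, Kl -0.64, Lars2 -1.27, Limd1 -0.02, Mrpl10 -0.12, Mtap1b -1.09, Olig1 -1.13, Prlr -1.15, Ptprz1 -0.61, Slc25a23 -1.15, Slc2a1 -0.13, Stat2 -0.04, Zbtb20 -0.18, Zfp91 -0.72. Without the filter on low counts 98 were lower and 5295 above 4-fold, the latter including rows at 0 in sham. With fewer (51) or more reference rows no named call changed, with a filter on the 4 libraries alone 1 was lost, with a fit of the 4 libraries alone 1, without the filter 3, and with DESeq2 3, those of Clip3, Laptm5 and Mtap1b. Leaving out 1 library in turn, with the reference rows chosen anew or, as an alternative added after seeing the data, kept, gave 3633 to 5339 higher, 12 to 206 lower and 1669 to 3204 above 4-fold, the lone library of a group being taken to vary like the others. Between 1 and 17 of the 153 rows changed sign in each case, and their log2 fold changes ranged as follows: Arhgap5 -0.98 to 0.99, Bmpr1a -0.25 to 0.46, Cacng4 -0.80 to 1.28, Cldn11 -1.84 to 0.89, Clip3 -0.84 to 0.02, Cnot10 -0.70 to 0.32, Cox6c -2.02 to 0.12, Cs -0.04 to 0.76, Ddx17 -0.21 to 0.57, Ddx5 -0.21 to 0.78, Deptor -0.61 to 0.03, Eif2ak2 -0.61 to 0.96, Gabrg1 -0.81 to 0.20, Gapdh -0.44 to 0.47, Gpr17 -1.08 to 0.51, Kcnh7 -0.71 to 0.13, Kl -0.16 to 1.85, Laptm5 -2.50 to 0.12, Lars2 -0.50 to 0.59, Lrrtm2 -1.03 to 0.12, Mtap1b -0.18 to 0.69, Nfil3 -1.83 to 0.01, Notch2 -0.63 to 0.18, Npy -0.44 to 0.37, Olig1 -0.18 to 0.60, Prlr -0.64 to 0.85, Psmd4 -0.51 to 0.04, Pvrl3 -0.93 to 0.51, Rgs5 -0.67 to 0.27, Rps13 -0.74 to 0.21, Sema5a -0.55 to 0.24, Slc25a23 -0.26 to 0.63, Snhg11 -1.34 to 0.05, Stxbp6 -0.63 to 0.09, Tle2 -0.90 to 0.42, Tspan2 -0.27 to 0.20. For seed matches, 10 bins of length moved 6 of 23 differences, and matches of 8 bases moved 15 and turned miR-218 to -0.08. No paired analysis was possible because the RIP groups share no replicate numbers. With 2 libraries per group and 18.1% of rows over 2-fold apart between the sham libraries, rows with few sham counts are the least precise.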
